A study of Gossypium hirsutum with 9 samples.

Results

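The 86 probes described here rose in signal from the day before anthesis (-1 day post anthesis, DPA) to the day after it (1 DPA) in ovules of both cotton lines XinWX and XinFLM. They were 86 of 29183 probes on a cotton cDNA microarray. A level below is the log2 of a spot's background-subtracted intensity, floored at 100 units, minus the median of all probes in the same channel of the same array. A probe was taken where its 3-array mean level rose by 1.5 or more, a rise of at least 2.83-fold, in each line. It also had to reach 400 units in both channels of every 1 DPA array, and the mean levels of both lines had to lie less than 0.7 apart at -1 and at 1 DPA. A rise of that size in both lines was found for 423 probes, of which 106 reached 400 units and 86 also met the limit between lines. Levels at -1 and 1 DPA therefore chose the probes, and their values at these stages are a description. The 0 DPA arrays took no part in the choice.

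Both lines are Gossypium hirsutum grown in the field. XinWX is a lintless-fuzzless mutant. XinFLM, which bears lint but no fuzz, was derived from XinWX, and the study describes it as a dominant mutant that differs at 1 locus for lint. RNA was taken from ovules together with their fibers at 3 stages (-1, 0 and 1 DPA), and each of the 9 arrays held XinWX and XinFLM of 1 stage in the Cy3 and Cy5 channels, with the dyes interchanged on replicate 2. Each stage had 3 arrays, which the labels count as 3 biological replicates including the swap and the methods as 2 biological replicates and a dye swap. The spread between arrays may thus be partly technical. In such bulk tissue a change in the share of a cell type and a change in RNA per cell cannot be told apart.

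Cotton lint fibers are single cells that grow out of the outer epidermis of the ovule. They begin to protrude around the day of anthesis and then elongate, while pollination and fertilization start seed development in the same ovule. In XinWX no lint forms, and a rise in both lines is thus a change that the lines with and without lint share. Neither gene names nor sequences were paired with the 86 probes in the sources used here. Their roles are not given, they are named by probe identifier, and the tissue could not be checked against marker genes. Gene names were known for 18 other probes that the study chose on these samples. None of the 18 met the limits, none rose by 1.5 or more in XinWX, and 1 did in XinFLM. That probe, 28K_179_F11, stands for a lipid transfer protein, a carrier of lipids towards the cell surface. It rose by 1.79 in XinFLM and changed by -0.65 in XinWX, a contrast to the shared rise of the 86 probes.

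The arrays of 1 DPA were not alike, and this touches all values at that stage. The control spots include 50%DMSO and 5 spot types whose names begin with CM, with 48 spots each. The 50%DMSO spots were brighter on 1 DPA arrays 1 and 2 than on any other array. The median of the 50%DMSO spots was between 568.5 and 1109.5 units in the channels of these arrays. It was 50.75 units in XinFLM and 356.25 units in XinWX on array 3, and between 20.0 and 285.75 units on the earlier arrays. The CM types were likewise brighter on arrays 1 and 2, except that CM020A01 in XinWX had 59.25 units on array 2 of 1 DPA and 88.0 units on array 2 of -1 DPA. The mean change of the 50%DMSO spots from -1 to 1 DPA was 1.71 in XinWX and 1.74 in XinFLM, which lies near the rises that chose the probes. Blank spots changed by 0.21 and 0.62. Their medians lay under the floor, so that this is the change of the array medians. Of the 86 probes, 81 lay above the median of the 50%DMSO and CM spots in every 1 DPA channel and 54 above their 90th percentile. The part of the control spots' change in the rise of the probes was not tested.

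The median level of the 86 probes went up between each pair of neighbouring stages. In XinWX their median level was -1.03, -0.81 and -0.67 on arrays 1, 2 and 3 of -1 DPA. It was 0.32, 0.28 and 0.48 on the arrays of 0 DPA, and 1.20, 1.30 and 0.69 on those of 1 DPA. In XinFLM the medians were -1.04, -0.62 and -0.65 at -1 DPA, 0.28, 0.07 and 0.40 at 0 DPA, and 1.35, 1.59 and 0.88 at 1 DPA. The medians of the 3 stages did not overlap in either line, and array 3 was the lowest of 1 DPA in both. Typical probes of the set were thus dimmer than the median probe at -1 DPA and brighter than it at 1 DPA. In units, the median of the 3-array means went from 863 over 1574 to 2470 in XinWX and from 833 over 1480 to 2146 in XinFLM. The lowest scanner flag, which the image software gives to poor spots, was carried by 23.3% to 31.4% of the 86 probes per array at -1 DPA. This share was 10.5% to 15.1% at 0 DPA and 2.33% to 5.81% at 1 DPA, whereas among all probes it was 25.9% to 40.6%. The choice left out probes below the limit in units on the 1 DPA arrays, and all probes include them. The share among only the probes that reached that limit is not given here, and nothing is read from the contrast.

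The rise from -1 to 1 DPA was 1.5 to 3.63 in XinWX, with a median of 1.77 or 3.41-fold. In XinFLM it was 1.51 to 3.78, with a median of 2.01 or 4.03-fold. Over all 29183 probes the median change was -0.01 in XinWX and 0.11 in XinFLM. The rise was larger in XinFLM for 70 of the 86 probes, by a median of 0.17, and the median of all probes was also higher in XinFLM. In units, the median of the 3-array means rose more in XinWX, from 863 to 2470, than in XinFLM, from 833 to 2146. Units are not scaled between channels. On array 3 of 1 DPA the median of all probes was 1664 units in XinWX and 694 units in XinFLM. The median of the 86 probes on that array was 2684.5 and 1281 units. On arrays 1 and 2 of 1 DPA it was 2274.5 and 2219 units in XinWX and higher in XinFLM, at 2521 and 2429 units. At 1 DPA the median in units was thus higher in XinWX on array 3 alone. The line difference in the rise was not tested. Only 21 probes rose by 2 or more in both lines, and 3 by 3 or more, while 24 had a smaller rise between 1.5 and 1.6. Most of the set thus lay close above the limit. Seen from the single arrays of 1 DPA, the median rise over the mean of -1 DPA was 1.88, 2.03 and 1.54 in XinWX and 2.09, 2.32 and 1.76 in XinFLM. On array 3 alone, 47 probes in XinWX and 50 in XinFLM reached 1.5.

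The largest mean rise belonged to 28K_173_H10 and 28K_290_D06, an order that depends on the floor of 100 units. With faint -1 DPA values set to 400 units, the largest mean rise was that of 28K_292_F04, and 28K_290_D06 ranked 11. The rise of 28K_292_F04 was then at least 10.2-fold in XinWX and 7.39-fold in XinFLM, but its arrays did not agree. In both lines its array 3 lay at least 1.5 below the other 2, at -1 DPA and at 1 DPA. The SD at 1 DPA was 2.14 in XinWX and 2.37 in XinFLM, and the -1 and 1 DPA arrays overlapped in at least 1 line. In XinWX the level of 28K_173_H10 was -3.98, -3.97 and -2.75 at -1 DPA, -3.75, -3.64 and -3.45 at 0 DPA, and 0.39, 0.32 and -0.87 at 1 DPA. In XinFLM it was -3.91, -3.70 and -3.22, then -3.78, -3.68 and -3.38, and then 0.34, 0.50 and -0.77. Its spots were at or near the floor on all arrays before 1 DPA, with mean intensities of 75.5 and 64.8 units in XinWX at -1 and 0 DPA and 1110 units at 1 DPA. Since every -1 DPA array gave it fewer than 400 units, its rise is at least 3.17-fold in XinWX and 3.22-fold in XinFLM when those arrays are set to the faint limit. The same holds for 28K_173_E02 (at least 5.79-fold and 7.88-fold) and 28K_263_G11 (at least 3.06-fold and 3.45-fold). It holds for no other of the 86 probes in both lines. These bounds set only the faint -1 DPA values and take no account of the control spots at 1 DPA. In XinWX, 28K_173_H10 had 1298, 1123 and 910 units on arrays 1, 2 and 3 of 1 DPA. The 90th percentile of the DMSO and CM spots there was 1410, 1645 and 460 units. In XinFLM the probe had 1253, 1141 and 407 units, against 954, 1651 and 150 units. On array 2, 28K_263_G11 lay under these percentiles with 807 and 885 units, and on arrays 1 and 3 above them. For 28K_173_E02, array 3 of 1 DPA lay at least 1.5 below the other 2 in both lines, though above the arrays of -1 DPA. The second, 28K_290_D06, was under 400 units on 2 of the 3 arrays of -1 DPA in each line, and with these set to 400 units it rose by at least 4.05-fold in XinWX and 5.46-fold in XinFLM. Its XinFLM level was -3.91, -1.75 and -3.22 at -1 DPA, -1.35, -0.06 and -3.21 at 0 DPA, and 1.51, 1.64 and -0.69 at 1 DPA. Arrays 1 and 2 of 1 DPA were far above array 3, yet all 3 lay above the arrays of -1 DPA.

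The brightest probes at 1 DPA were 28K_077_B08 and 28K_246_H10, with mean intensities of 13814 and 11568 units in XinWX and 16415 and 12817 units in XinFLM. For 28K_077_B08 the XinWX level was 1.82, 2.21 and 1.86 at -1 DPA, 2.98, 3.08 and 2.14 at 0 DPA, and 3.54, 4.20 and 3.00 at 1 DPA. The mean levels of the 3 stages followed each other in order. Single arrays of neighbouring stages overlapped, and the -1 and 1 DPA arrays did not. In XinFLM the level of 28K_077_B08 was 1.94, 2.15 and 1.76, then 2.73, 2.59 and 2.69, and then 4.53, 4.69 and 3.01. For 28K_246_H10 the XinWX level was 1.30, 1.43 and 1.6 at -1 DPA and 3.93, 4.19 and 0.96 at 1 DPA, and the XinFLM level 0.96, 1.04 and 1.20 at -1 DPA and 4.14, 4.64 and 0.45 at 1 DPA. Its mean rise came from arrays 1 and 2 of 1 DPA, and array 3 lay below every array of -1 DPA in both lines. In the 1 DPA level of such probes, array 3 and the other 2 arrays did not agree.

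The -1 and 1 DPA arrays did not overlap, in both lines, for 62 of the 86 probes, compared with 4.22% of all probes. That contrast chose the probes, and nothing is read from the count. For 12 probes, array 3 of 1 DPA lay within or below the range of -1 DPA in both lines. A lone -1 DPA array at least 1.5 below the other 2 in both lines was seen for 18 probes (0.603% of all probes), for 7, 5 and 6 probes on arrays 1, 2 and 3. For 9 probes, array 3 of 1 DPA lay at least 1.5 below the other 2 in both lines (2.23% of all probes). Since XinWX and XinFLM shared each spot, such a value in both lines is 1 observation and not 2. An example of the lone low array is 28K_294_A10, whose XinWX level was -2.77 on array 1 of -1 DPA and 2.55 and 2.68 on the other arrays of that stage. Its levels of 0 and 1 DPA were between 2.50 and 2.90 in XinWX and 2.57 and 3.44 in XinFLM, so that its rise rested on 1 spot. The opposite example is 28K_255_A11, with XinWX levels of -0.59, -0.60 and -0.21 at -1 DPA, -0.79, -0.04 and -0.54 at 0 DPA, and 3.96, 4.05 and -0.70 at 1 DPA.

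When each array of -1 and 1 DPA was left out in turn, 23 of the 86 probes met the limits every time, and 21 of them also had arrays that did not overlap. These 21 were picked on their values and carry no test. They rose by 1.65 to 3.78, with medians of 1.93 in XinWX and 2.29 in XinFLM. All 21 met the limits after Aquantile normalization, 17 with levels centred within printing blocks, 15 with array 3 as the sole array of 1 DPA, 12 when they had to exceed the 90th percentile of the 50%DMSO and CM spots, and 7 when no array could carry the lowest flag. Met under the Aquantile, block and control spot settings together, the limits left 10 probes. They were 28K_009_D10, 28K_080_D05, 28K_115_C01, 28K_156_F09, 28K_173_F04, 28K_206_C03, 28K_247_B08, 28K_261_F10, 28K_290_D06 and 28K_292_D05. Of these 10, 6 also met the limits with array 3 as the sole array of 1 DPA, 5 had no lowest flag, and 3 met both (28K_080_D05, 28K_261_F10 and 28K_292_D05). The 4 that did not meet the limits on array 3 alone were 28K_009_D10, 28K_156_F09, 28K_173_F04 and 28K_206_C03.

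Among these 10 the widest gap between the arrays of -1 and 1 DPA, 1.49, was that of 28K_115_C01. Its XinWX level was -0.93, -0.51 and -0.66 at -1 DPA, 1.05, 0.43 and 0.90 at 0 DPA, and 1.13, 1.79 and 1.4 at 1 DPA. In XinFLM it was -0.49, -0.21 and -0.76, then 1.45, 0.69 and 0.61, and then 1.29, 1.54 and 1.49. All arrays of 0 and 1 DPA lay above those of -1 DPA, array 3 of 1 DPA included, with a rise of 4.40-fold in XinWX and 3.80-fold in XinFLM. The pattern of 28K_261_F10 was close to it, at -1.08, -1.03 and -0.33 at -1 DPA, 0.77, 0.94 and 1.05 at 0 DPA, and 1.18, 0.99 and 1.12 at 1 DPA in XinWX. Its rise was 3.77-fold in both lines. In contrast, the mean level of 28K_206_C03 was lower at 0 than at -1 DPA in both lines and was highest at 1 DPA. Its XinWX level was 0.67, -0.54 and 0.23 at -1 DPA, -1.18, -0.08 and 0.55 at 0 DPA, and 3.20, 2.64 and 1.12 at 1 DPA, a rise of 4.60-fold, and it rose 6.18-fold in XinFLM.

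When the rise took place differed between probes. The share of the rise reached at 0 DPA is the difference of the mean levels of 0 and -1 DPA over that of 1 and -1 DPA. Its median was 0.62 in XinWX (quartiles 0.21 and 0.85) and 0.46 in XinFLM (quartiles 0.14 and 0.71). The share was over 0.5 in both lines for 39 probes, whose mean level had risen mainly by anthesis. It was under 0.25 in both lines for 22 probes, whose mean level rose mainly after it. The remaining 25 lay between these limits or differed between the lines. Since the share is taken from means, a lone low array can set it. For 28K_139_B11, with a share over 0.5 in both lines, the XinWX level was 1.71, -3.97 and 1.38 at -1 DPA. At 0 DPA it was 1.14, 1.47 and 1.34, and arrays 1 and 3 lay below the arrays of the same number at -1 DPA. For 6 probes the level at 0 DPA was below that of -1 DPA in both lines, and for 2 it was above that of 1 DPA in both. Replacing the mean of 0 DPA by each single array gave median shares of 0.61, 0.67 and 0.66 in XinWX and 0.48, 0.48 and 0.57 in XinFLM. These values share the means of -1 and 1 DPA, and the lines share each spot, so that they are not independent of each other.

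The share was larger in XinWX for 60 of the 86 probes, by a median of 0.10, but for the 21 probes that rose by 2 or more in both lines the median was 0.28 in XinWX and 0.35 in XinFLM. Its end points are values that chose the probes, and the line difference in share was not tested by itself. The test of the lines at 0 DPA is given below. For the same 86 probes without array 3 of 1 DPA, the median share was 0.54 in XinWX and 0.42 in XinFLM. When the limits were applied anew without that array, 563 probes met them, 75 of the 86 among them. The median share over this mostly different set was 0.05 in XinWX and 0.01 in XinFLM.

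The largest shares belonged to 28K_074_D12 and 28K_294_A10, and in both a low -1 DPA value set the rise. For 28K_074_D12 the XinWX level was -3.98, -3.97 and 0.14 at -1 DPA, 0.01, 0.41 and 0.32 at 0 DPA, and -0.27, -0.82 and -0.31 at 1 DPA. Array 3 of -1 DPA lay above the arrays of 1 DPA, in contrast to arrays 1 and 2. The smallest shares belonged to 28K_193_C05 and 28K_002_H07, whose mean level fell to 0 DPA before it rose. For 28K_193_C05 the XinFLM level was -1.22, -0.05 and -1.52 at -1 DPA, -2.24, -0.48 and -1.27 at 0 DPA, and 0.58, 1.04 and 1.08 at 1 DPA. For 28K_002_H07 single low arrays set both means. Its XinWX level was -1.50, 2.19 and 2.11 at -1 DPA, 2.16, -1.89 and 1.89 at 0 DPA, and 2.34, 3.01 and 2.39 at 1 DPA. For neither probe were all arrays of 0 DPA below all those of -1 DPA.

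At 0 DPA, the stage that did not enter the choice, the lines were compared with limma on the log2 ratio of XinWX over XinFLM, with p-values adjusted by the Benjamini-Hochberg method over all probes tested. Of the 86 probes, 83 were kept on enough arrays to be tested. None of them passed an FDR of 0.05 together with a change of 2-fold or more, compared with 1.48% of the 22654 probes tested. At the FDR alone 2 were higher in XinWX (3.5% of all probes) and 0 were higher in XinFLM (4.18% of all probes), together 2 of 83 against 7.69%. At an unadjusted p under 0.05 there were 17 probes, or 20.5%, close to the 21.4% over all probes. The median ratio was 0.09, within a range of -0.45 to 0.60, and it was above 0 for 57 of the 83 probes compared with 48.9% of all probes tested. The limit of 0.7 between lines at -1 and 1 DPA leaves out probes with a large line ratio at those stages, which bears on the ratio at 0 DPA too, and its part in the low count was not tested.

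The probe furthest towards XinWX was 28K_029_A05, with log2 ratios of 0.60, 0.45 and 0.74 on the 3 arrays of 0 DPA. The mean was 0.60 ± 0.14 (SD, n = 3 arrays), or 1.51-fold, with an adjusted p of 0.00796 in limma. Its ratio was above 0 on each array and under the fold limit on all of them. The other probe past the FDR was 28K_156_F09, at 0.57, 0.64 and 0.24, with a mean of 0.48 ± 0.22 and an adjusted p of 0.0366 in limma. Neither call held throughout. Of 17 other settings, 28K_029_A05 passed the FDR in 14 and 28K_156_F09 in 7. With the replicate number as a block the adjusted p in limma was 0.00727 for 28K_029_A05 and 0.0508 for 28K_156_F09. With replicates 1 and 2 averaged, in a design of 2 biological replicates, it was 0.104 and 0.401. In both the level of 0 DPA was nearer to that of 1 DPA in XinWX than in XinFLM. For 28K_156_F09 the XinWX level was -1.61, -0.80 and -0.72 at -1 DPA, 0.11, 0.68 and 0.82 at 0 DPA, and 0.85, 1.09 and 0.41 at 1 DPA, while in XinFLM it was -1.36, -0.31 and -0.42, then -0.51, 0.00 and 0.60, and then 1.39, 1.62 and 0.49. Its share of the rise reached at 0 DPA was 0.86 in XinWX and 0.39 in XinFLM. The step from -1 to 0 DPA differed between the lines at an FDR under 0.05 for 2 of 76 probes (6.68% of all probes), and the step from 0 to 1 DPA for 3 of 83 (8.22%). Both steps include a stage at which the choice limited the line difference, and nothing is read from these counts. The largest ratio towards XinFLM among probes of the same sign on all 3 arrays was that of 28K_255_A11, at -0.37 ± 0.08 (SD, n = 3 arrays), which did not pass the FDR (adjusted p of 0.0786 in limma).

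As a further readout, the same limits were applied to the arrays of 2 replicate numbers. The rise was then read on the arrays of the number left out. With number 1 left out, 93 probes were chosen, 52 of them among the 86, and the median rise on the arrays left out was 1.04 in XinWX and 1.57 in XinFLM. It reached 1.5 in both lines for 32 probes or 34.4%, compared with 1.58% of all probes that had 400 units on the arrays of choice. With number 2 left out, 93 probes were chosen, the medians were 1.11 and 1.32, and 34 probes or 36.6% reached 1.5 in both lines, compared with 2.34%. On these arrays the rise was above 0 in both lines for 93.5% and 80.6% of the probes chosen. Among all probes this was 36.9% and 40.8%. In each of these splits, 1 of arrays 1 and 2 of 1 DPA helped choose and the other was read. The DMSO and CM control spots were brighter on both of them than on array 3. A signal common to these arrays and a rise of the probes cannot be told apart here, and nothing is read from these percentages. With number 3 left out the outcome was different. Then 616 probes were chosen, their median change on the arrays of number 3 was -0.30 in XinWX and 0.34 in XinFLM, and 15 of them or 2.44% reached 1.5 in both lines, compared with 1.11%. A change above 0 in both lines was seen for 29.2%, compared with 36.4% of all probes. Rises seen on arrays 1 and 2 of 1 DPA were thus mostly not seen on array 3.

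The 86 probes were not spread evenly over the array. The array was printed in 48 blocks, and 34 of the 86 probes, or 39.5%, lay in blocks 9 to 16, which held 16.7% of all probes and 16.9% of those with 400 units on the 1 DPA arrays. In blocks 33 to 48 there were 11, or 12.8%, compared with 33.3% of all probes. The median change of all probes from -1 to 1 DPA was also higher in blocks 9 to 16, at 0.27 in XinWX and 0.38 in XinFLM, against -0.07 and 0.04 in the other blocks. The medians of these 8 blocks lay between 0.17 and 0.33 in XinWX and between 0.28 and 0.45 in XinFLM. When levels were centred on the median of each block instead of each array, 67 probes met the limits. They held 49 of the 86, and 10 of the 34 from blocks 9 to 16. The median rise of the 86 probes was then 1.59 in XinWX and 1.86 in XinFLM. By the plate number in their identifiers they came from 67 of 304 plates, with up to 4 probes on a plate (plate 292). Plate 173 held 3 of the 86, among them 28K_173_H10 with the largest rise, and 28K_173_B04 close outside the limit. The part of position in the choice of the probes was not tested further.

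At the limit itself, the 2 probes closest inside were 28K_154_D05 and 28K_092_F12, and the 2 closest outside were 28K_245_F05 and 28K_173_B04. The smaller rise of 28K_154_D05 lay just above 1.5 and that of 28K_245_F05 just below it. In XinWX the level of 28K_154_D05 was -0.48, -0.90 and -0.01 at -1 DPA and 1.90, 1.16 and 0.05 at 1 DPA. That of 28K_245_F05 was 0.13, -0.32 and -1.67 at -1 DPA and 1.15, 0.87 and 0.60 at 1 DPA. A further 23 probes met the other limits with a smaller rise between 1.4 and 1.5, about as many as the 24 between 1.5 and 1.6. In limma's separate-channel fit, which uses the arrays of the choice, 38 of 78 probes tested were called higher at 1 than at -1 DPA in XinWX (0.862% of all probes tested) and 60 of 78 in XinFLM (4.73%). From -1 to 0 DPA it called 12 of 76 higher in XinWX (0.229%) and 12 of 76 in XinFLM (0.567%). From 0 to 1 DPA it called 3 of 83 in XinWX (0.0237%) and 14 of 83 in XinFLM (1.07%). Nothing is read from these counts, since the same arrays chose the probes. None of the probes tested was called lower at a later stage, and nothing is read from that either, since rising probes were chosen.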

How the data were processed

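The deposited scanner files hold, for each spot, the intensity of either dye, that of the surrounding background and a flag, a score that the authors' image software gave it, with no normalization. A further deposited table holds log2 ratios that the authors normalized within arrays, and these served as an alternative. They correlated with the ratios computed here at r = 0.944 to 0.998, and their column medians lay between -0.00915 and 0.00819. Versions in the submitters' processing notes are 3.4.5 for limma and 2.12.2 for R. Spots were 30000 per array, of which 816 were controls or empty, and 1 probe with 2 spots was averaged.

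Levels were computed as given with the results. For the line ratio at 0 DPA, intensities were background corrected with normexp (offset 50) and loess normalized (span 0.3) in limma 3.58.1 under R 4.3.3. Spots under 400 units in both channels were removed, and 20544 to 23884 probes were left per array. All 9 arrays were fitted with 1 coefficient per stage and the ratios of replicate 2 turned, and a probe was tested where 2 or more arrays of the stage kept it. Changes within lines were fitted by separate-channel analysis after Aquantile normalization with statmod 1.5.0 (intraspot correlation 0.723). The fit of the line ratio at 0 DPA was run on simulated ratios with normal noise, independent between arrays. These held no differences between arrays or blocks and no faint spots. Levels and counts were computed in Python 3.11.15.

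The number of arrays limits the precision. The probes, the limits and the alternatives were chosen with earlier results of these data known. Probes were named by rule: the largest rise, the largest and smallest share, the furthest line ratios, the brightest, and those nearest the limit. The 10 probes that held under several settings, 28K_173_E02, 28K_292_F04, 28K_263_G11, 28K_224_H10 and 28K_225_C11 were added after their values were seen. Alternatives covered background, faint spots, flags, normalization, dye, replicate number, arrays left out, the limits of the choice, printing blocks and control spots, of which the last pair, the use of array 3 of 1 DPA alone and loess within blocks were added after seeing the data. Same-numbered arrays of -1 and 0 DPA deviated alike in the line ratio (r = 0.14, 0.257 and 0.128), and those of the other stage pairs did not (r from -0.0628 to 0.0819). No gene set was tested.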

Additional observations from a re-analysis of the deposited data

Results flagged for a closer look

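In the limma fit of the line ratio, the step between neighbouring stages differed between XinWX and XinFLM for 4 of the 86 probes at an FDR under 0.05. From -1 to 0 DPA the step was larger in XinWX by 0.87 for 28K_029_A05 (adjusted p of 0.00833 in limma) and by 0.81 for 28K_156_F09 (adjusted p of 0.0169), which are 2 of 76 tested compared with 6.68% of all probes in either direction. From 0 to 1 DPA the difference of XinWX minus XinFLM was -0.82 for 28K_156_F09 (adjusted p of 0.0137 in limma), -0.64 for 28K_224_H10 (0.0416) and -0.76 for 28K_225_C11 (0.0173), 3 of 83 tested compared with 8.22% of all probes. Each contrast holds a stage at which the choice limited the line difference, so that these values are not independent of the choice.

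Signal also changed in the 50%DMSO and CM spots, which are controls and not among the probes. The mean change of both lines from -1 to 1 DPA was 1.73 for 50%DMSO, 1.26 for CM020A01, 1.48 for CM034G09, 1.34 for CM048F4, 1.52 for CM061D06 and 1.98 for CM115A05 spots. The medians of the blank spots lay under the floor, and their change of 0.42 is that of the array medians. What the CM spots hold is not given in the sources used here.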

How the results depend on the processing

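The number of probes called between the lines at 0 DPA was 0 under every alternative except that without a minimum fold change, where it was 2. The number past the FDR alone, 2 as reported, was 12 after scale normalization between arrays and 4 with the 0 DPA arrays alone. It was 1 without the filter on faint spots, with median centring, with a dye term, with the authors' ratios and with separate channels, and 0 with replicates 1 and 2 averaged. With the replicate number as a block it was 1, and no probe was called. Leaving out each 0 DPA array gave 0 to 1 past the FDR and median ratios of 0.074 to 0.125. The ratio of 28K_029_A05 stayed between 0.526 and 0.742 and that of 28K_255_A11 between -0.454 and -0.317.

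The number of probes under the rule, 86, was 341 with a rise of 1, 21 with a rise of 2, 31 with no lowest flag and 54 above the control spots' 90th percentile. Leaving out each array gave 72 to 563, the highest without array 3 of 1 DPA. The other alternatives gave 58 to 127. Taken over the same 86 probes, the median rise was between 1.54 and 1.988 in XinWX and between 1.76 and 2.17 in XinFLM. Their rise on these arrays chose the probes, and nothing is read from that range.

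The median share reached at 0 DPA was taken over the probes that each setting chose. It moved from 0.622 in XinWX to 0.591 with a floor of 200 units, 0.557 after Aquantile, 0.576 with a rise of 1, 0.527 with block medians, 0.562 above the control spots and 0.586 with array 3 of 1 DPA alone. In XinWX and XinFLM it was 0.465 and 0.354 with a limit of 200 units, 0.691 and 0.539 with 800 units, and 0.284 and 0.354 with a rise of 2, where XinFLM had the larger share. Leaving out each array gave 0.046 to 0.715 in XinWX and 0.005 to 0.554 in XinFLM, the lowest without array 3 of 1 DPA. The cause was not tested.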
